A study of Mus musculus with 10 samples.

Results

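Intestinal organoids treated with the carcinogen DMBA and tamoxifen together (DMBA+TAM) were compared with organoids treated with tamoxifen in the set labelled long (TAM long), over all 47069 genes of the deposited count table. The comparison rests on 4 of the 10 RNA-seq libraries of the study, with 2 libraries in each group, and these were picked by their treatment labels and by no measured value. All 4 libraries are labelled as intestinal organoids of strain C57BL/6 after a culture period of 50 days, grown in Matrigel with Noggin, EGF and R-spondin-1. The mice behind both groups carried *Lgr5-EGFP-CreERT2* together with *Ppp2r1a* flox/flox alleles, so the Cre transgene and the floxed alleles are common to them and no wild-type library is part of the comparison. The Cre recombinase of this line is driven by *Lgr5* and acts after tamoxifen, so *Ppp2r1a* can be lost only in *Lgr5*+ cells and their descendants. The labels do not explain the word long, call this tamoxifen dosage-sensitive without further detail, and do not say whether the 2 libraries of a group came from separate animals or cultures. The p-values therefore measure spread between libraries only. That spread is estimated over all 10 libraries of the study, so it includes libraries outside the comparison. The titles of the libraries do not match these treatments in words, since those of TAM long begin with DSS, an abbreviation in common use for dextran sulfate sodium, an agent that injures the colon, and those of DMBA+TAM with *Lgr5*. The labels do not say what DSS stands for here. The groups here follow the treatment labels, and whether titles and treatments belong together was not tested.

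The intestinal epithelium is a single sheet of absorptive, mucus-secreting and hormone-secreting cells that is renewed from *Lgr5*+ stem cells at the base of the crypts, while fibroblasts, smooth muscle, vessels, nerves and immune cells lie in the connective tissue and muscle beneath it. Organoids grown from crypts are expected to hold the epithelial cells only. PP2A is a serine/threonine phosphatase built from a scaffold, a catalytic and a regulatory subunit, and *Ppp2r1a* encodes its main scaffold. DMBA is a polycyclic hydrocarbon that cytochrome P450 enzymes turn into a form that binds DNA.

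The TAM long libraries held 10923673 and 9737176 counts on genes, and the DMBA+TAM libraries 1592366 and 1915270, so that low genes were measured less precisely in DMBA+TAM. Levels are given as normalized CPM, that is counts relative to the library total after TMM scaling. At these totals 3 counts, taken here as the lowest level that can be told from 0, stand for 0.258 and 0.294 normalized CPM in TAM long and for 1.58 and 1.31 in DMBA+TAM. Log2 fold changes are those of DMBA+TAM minus TAM long, given with their standard error (SE), and adjusted p-values come from the quasi-likelihood test of edgeR, adjusted by Benjamini and Hochberg's method over the 16179 genes that its filter on low counts kept. A gene is called when its adjusted p is under 0.05. In all, 8924 genes were called, or 55.2% of those tested, with 4093 higher (25.3%) and 4831 lower (29.9%) in DMBA+TAM. The changes were large: 3028 genes were called higher and 3267 lower by more than 1 on the log2 scale, and 66 and 448 by more than 8. Among the genes called lower, 640 had no count in either DMBA+TAM library, and among those called higher, 53 had none in either TAM long library. A gene that passed the filter only through its DMBA+TAM counts could hardly come out lower, so its call is no separate evidence. In the same fit, TAM long and the DMBA libraries of the study differed at 437 genes (2.70%), of which those higher in TAM long made up 1.24% and those lower 1.46% of the genes tested. The median log2 fold change of all tested genes was -0.14, and 0.03 when libraries were scaled by their totals alone. With so many genes called, each list of genes below is described by its counts and its median beside these values. A list with about 55.2% of its members called does not stand out from all tested genes. Statements that groups did not overlap describe a gene's values and are no separate evidence. An exact permutation test of 2 against 2 libraries cannot go below p = 0.333, and the share of all tested genes without overlap was not counted. Where both libraries of a group had no count, any fold given is a lower bound against 3 counts over the pooled total of the group. Where they had 1 to 3 counts together, any ratio given carries its exact 95% interval for counting error. Some genes with so few counts are described by their counts alone.

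*Ppp2r1a* (ENSMUSG00000007564, chr17:20945311-20965916 on GRCm38), the gene that Cre deletes in part, had 169 and 157 normalized CPM in TAM long and 129 and 132 in DMBA+TAM. Both DMBA+TAM values lay below both TAM long values, and no library was near 0. The counts cover all exons of the gene, so the loss of the floxed part cannot be seen in them. The log2 fold change was -0.31 (SE 0.11, edgeR adjusted p = 0.0403). This call was lost under each of 10 alternative settings, where the log2 fold change ran from -0.37 to -0.14 and the adjusted p from 0.0547 to 0.42.

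The genes that make a cell epithelial were almost absent from DMBA+TAM. Of 21 tested genes for epithelial identity and cell junctions, 21 were called lower and none was called higher, with a median log2 fold change of -8.94, or -8.93 with the genes of 0 to 3 counts at their bound or ratio. The summed level of this list was 19994 and 22055 normalized CPM in TAM long and 60.6 and 42.9 in DMBA+TAM, and it lay between 19752 and 31281 in the other 6 libraries. Against its label, the DMBA+TAM libraries thus hold little RNA of intestinal epithelium. In RNA of whole cultures, fewer cells of a type and less RNA per cell cannot be told apart. *Epcam*, the epithelial cell adhesion molecule, had 19332 and 17546 counts in TAM long and 3 in each DMBA+TAM library (log2 fold change -10.18, SE 0.23, edgeR adjusted p = 8.71e-09). *Krt8*, a keratin of simple epithelia, had 5365 and 5966 normalized CPM in TAM long and 11.6 and 7.45 in DMBA+TAM, a log2 fold change of -9.23. The groups were far apart for both genes, and the replicates within each group were close. *Cdh1*, or E-cadherin, which holds neighbouring epithelial cells together, had 737 and 872 normalized CPM in TAM long and 2.64 and 3.94 in DMBA+TAM. *Vil1*, the actin-bundling villin of the brush border, had 8678 and 8261 counts in TAM long and 1 count in each DMBA+TAM library, a ratio of 1624 (449 to 13410). *Ehf*, an epithelial transcription factor, had 361 and 389 normalized CPM in TAM long and no count in DMBA+TAM, at least 522-fold lower. The smallest changes of the list were those of *Esrp1* and *Esrp2*, which direct epithelial splicing, with log2 fold changes of -5.12 and -3.51.

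The promoters of *Epcam* and *Krt8* are shown because both genes fell along with the rest of the list and both promoters hold the E-box CAGGTG, which reads as CACCTG on the other strand, the kind of sequence that the repressors *Snai1* and *Zeb1* are known to bind. The stretches run from 250 bases before to 50 bases after the start site, are taken from RefSeq on GRCm38.p6 and are written in the direction of the gene, with the motif in capitals. The promoter of *Epcam* lies at chr17:87635729-87636028 on the plus strand and that of *Krt8* at chr15:102004293-102004592 on the minus strand.
*Epcam*: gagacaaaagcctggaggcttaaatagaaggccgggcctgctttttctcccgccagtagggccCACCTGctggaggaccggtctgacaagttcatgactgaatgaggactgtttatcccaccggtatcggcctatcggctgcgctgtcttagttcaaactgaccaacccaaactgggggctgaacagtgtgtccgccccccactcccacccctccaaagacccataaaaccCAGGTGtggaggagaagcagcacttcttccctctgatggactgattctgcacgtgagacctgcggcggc
*Krt8*: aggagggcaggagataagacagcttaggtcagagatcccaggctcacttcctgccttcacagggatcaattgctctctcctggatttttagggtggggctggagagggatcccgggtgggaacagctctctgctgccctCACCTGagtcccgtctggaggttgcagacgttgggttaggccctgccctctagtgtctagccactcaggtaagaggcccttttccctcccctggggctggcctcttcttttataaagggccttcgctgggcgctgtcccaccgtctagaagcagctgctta
The *Epcam* promoter holds the motif at 187 and 19 bases before the start site, and the *Krt8* promoter at 111 bases before it. The motif was found in 14 of 16 promoters of the 13 listed epithelial genes that have a promoter in the table (87.5%), in 2 of 16 promoters of the fibroblast list described later (12.5%) and in 20.2% of all 32851 promoters of this length. The motif was chosen with the values of these genes known, a match describes the sequence and not a bound site, and the binding of no factor was measured in these libraries.

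**Figure D1:**
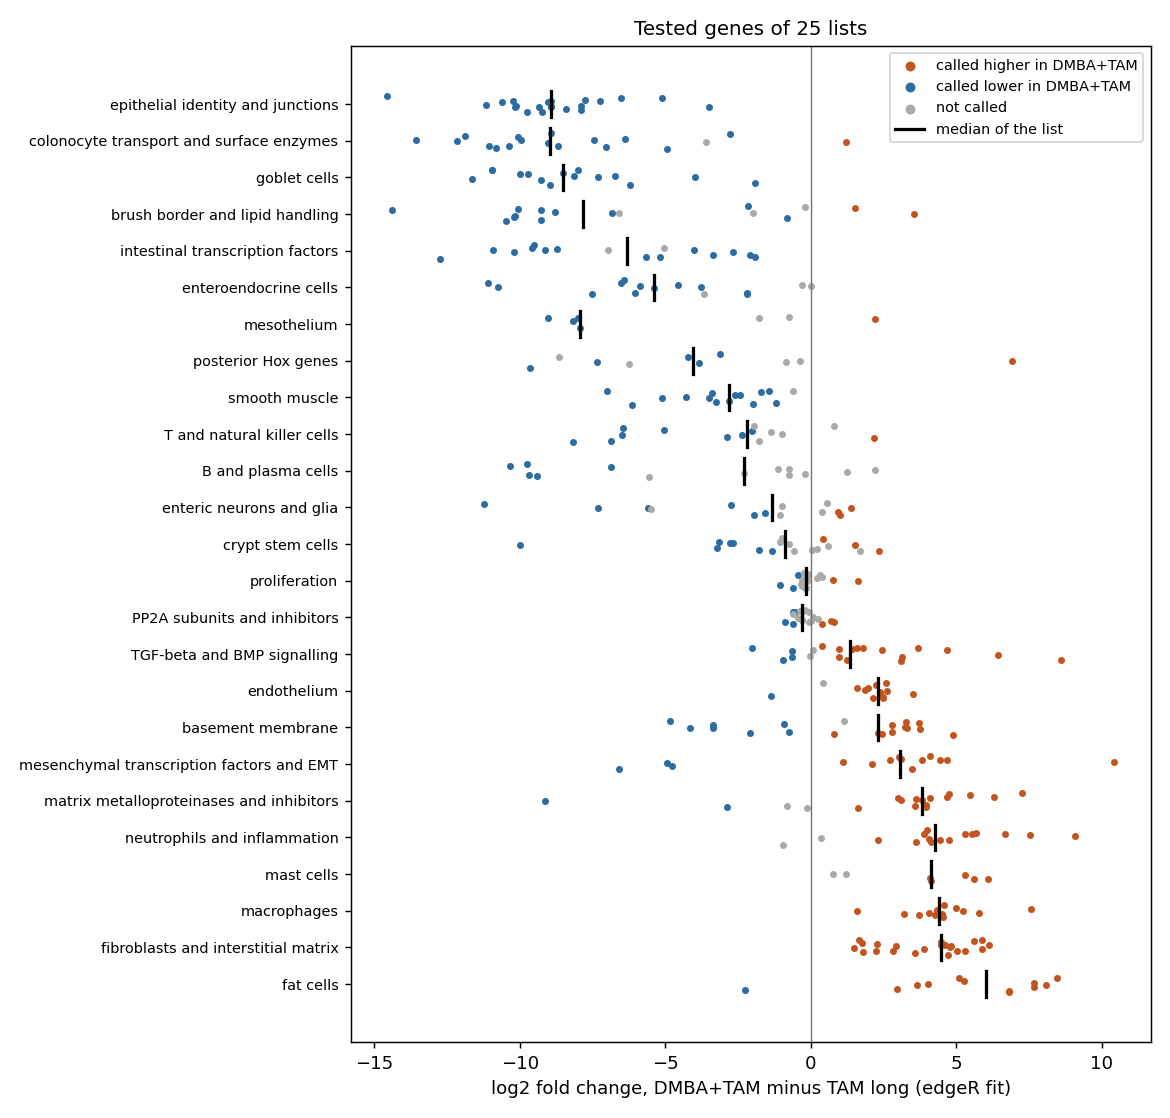
Log2 fold changes (DMBA+TAM minus TAM long, horizontal axis) of the tested genes of 25 lists, with 1 point per gene coloured by its call and a bar at the median of each list. The median is -8.94 for epithelial identity and junctions at the top, -0.18 for proliferation in the middle and 6.03 for fat cells at the bottom.

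The transcription factors that set intestinal identity fell too. Of 16 tested, 14 were called lower and none higher (median log2 fold change -6.33, or -4.35 with bounds), and the sum of the list was 2539 and 2431 normalized CPM in TAM long and 159 and 150 in DMBA+TAM. *Cdx2*, the homeobox factor that specifies the intestine, had 2356 and 1888 counts in TAM long and 1 and 0 in DMBA+TAM, a ratio of 814 (146 to 32148). *Hnf4a*, a nuclear receptor of absorptive cells, had 684 and 680 normalized CPM in TAM long and 2.11 and 0.438 in DMBA+TAM. Neither gene showed overlap between the groups. *Klf5*, active in the crypt, had 102 and 88.9 normalized CPM against 1.05 and 3.94. The smallest falls among the called members were those of *Gata6* (log2 fold change -1.93, SE 0.24) and *Creb3l3* (log2 fold change -2.08, SE 0.42). *Gata4* and *Gata5* were not called, and both had few counts in TAM long and none in DMBA+TAM, *Gata4* being called lower with no filter (edgeR adjusted p = 0.000348) or with thinned counts (0.0265).

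Genes of the differentiated cells of the epithelium fell with its identity genes. Of 15 genes of goblet cells, which secrete mucus, 15 were called lower (median -8.51, or -8.01 with bounds), and their sum was 27750 and 42286 normalized CPM in TAM long against 119 and 78 in DMBA+TAM. *Muc2*, the main gel-forming mucin, had 111170 and 127280 counts in TAM long and 25 and 20 in DMBA+TAM (log2 fold change -9.98, SE 0.32, edgeR adjusted p = 2.09e-08). *Zg16*, a lectin of goblet cell granules, had 2487 and 3385 normalized CPM against 2.64 and 0.438. *Fcgbp*, a mucus protein, had 2043 and 3982 normalized CPM in TAM long, a wider spread between replicates, against 11.6 and 5.26. For these genes DMBA+TAM was lower in both libraries by far more than the spread within either group. Of 18 tested genes for transport and surface enzymes of the colon, 16 were called lower and 1 higher (median -8.97, or -7.75 with bounds). *Slc26a3*, a chloride-bicarbonate exchanger, had 528 and 1051 normalized CPM in TAM long and 1.05 and 0.438 in DMBA+TAM, a ratio of 1076 (368 to 5218). *Aqp8*, a water channel of the surface, had 381 and 927 normalized CPM against 1 count in each DMBA+TAM library, a ratio of 1330 (368 to 10982). *Car1*, a carbonic anhydrase of the colon, had 11114 and 2840 normalized CPM in TAM long, a spread of several fold between these replicates, and 4.22 and 3.51 in DMBA+TAM. *Guca2a*, or guanylin, had 2053 and 2691 against 8.43 and 1.75. The member called higher was *Slc20a1*, a phosphate transporter of many cell types, with 89.3 and 121 normalized CPM against 252 and 232, and its call was lost without each of the 4 libraries in turn (log2 fold change 0.98 to 1.43, edgeR adjusted p 0.0792 to 0.205).

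Brush border genes gave a mixed picture. Of 16 tested genes of the brush border and of lipid handling, 11 were called lower and 2 higher (median -7.82). *Fabp2*, an intestinal fatty acid-binding protein, had 8433 and 8558 counts in TAM long and 0 and 3 in DMBA+TAM, a ratio of 1086 (372 to 5266). *Mep1b*, a meprin metalloprotease, had 330 and 341 normalized CPM and no count in DMBA+TAM, at least 467-fold lower. The members called higher were *Anpep*, with 6.72 and 5.01 normalized CPM against 77.5 and 60, and *Dpp4*, with 24.6 and 28.8 against 71.2 and 80.6. Both are surface peptidases that fibroblasts and other cells also carry. Genes of the small intestine told little, since *Lct* and *Apoa4* had no count in any of the 4 libraries and *Sis* had 40 and 4 counts in TAM long and none in DMBA+TAM. Of 12 tested in that list, 3 were called lower and 2 higher, and 1 higher without DMBA+TAM replicate 1, DMBA+TAM replicate 2 or TAM long replicate 2.

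Hormone-secreting and tuft cells followed in part. Of 15 tested genes of enteroendocrine cells, 12 were called lower and none higher (median -5.38, or -3.77 with bounds), and without DMBA+TAM replicate 2 the number lower was 6. *Chga*, a granin of hormone granules, had 39.3 and 26.7 normalized CPM in TAM long and 3.16 and 1.75 in DMBA+TAM (log2 fold change -3.77, SE 0.37, edgeR adjusted p = 1.55e-05). *Pyy*, the hormone peptide YY of the distal gut, had 370 and 362 counts and none in DMBA+TAM, at least 46.8-fold lower. *Gcg*, the precursor of glucagon-like peptides, had 490 and 524 counts against 0 and 1. Tuft cell genes were split, with 4 of 10 tested called lower and 4 higher. *Trpm5*, a cation channel of tuft cells, had 98 and 102 counts in TAM long and none in DMBA+TAM, at least 12.8-fold lower. *Dclk1*, a kinase that marks tuft cells and is made by nerve cells too, was called higher at 26.5 and 24.4 normalized CPM against 29.5 and 44.3 (log2 fold change 0.54, SE 0.20). Its call was lost without DMBA+TAM replicate 2, TAM long replicate 1 or TAM long replicate 2 (edgeR adjusted p = 0.417, 0.0944 and 0.155). The members called higher also included *Ptprc*, the leukocyte antigen CD45, with 19.7 and 21.2 normalized CPM against 202 and 189. *Ptprc* is not particular to tuft cells, and the part of other leukocytes in its level was not tested.

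Most tight junction genes beyond the identity list fell as well. Of 16 tested claudins and other junction genes, 11 were called lower and 2 higher (median -2.40). *Cldn8*, a barrier claudin of the colon, had 35 and 62.9 normalized CPM in TAM long and no count in DMBA+TAM, at least 66.9-fold lower. *Cldn2*, a pore-forming claudin of crypts, had 1576 and 985 counts against 1 and 0, a ratio of 491 (88.1 to 19402). The junction genes called higher were *Jam2*, an adhesion molecule of vessels, with 18.8 and 22.9 normalized CPM against 56.9 and 66.2, and *Cldn1*, at 1.89 and 2.16 against 5.27 and 5.7. The call of *Cldn1* was lost without any of the 4 libraries (edgeR adjusted p 0.069 to 0.134).

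Genes of crypt stem cells did not share a direction, although their summed level was lower. Of 18 tested, 3 were called higher, 7 lower and 8 were not called (55.6% called, near the 55.2% of all tested genes, median log2 fold change -0.88). The sum of the list was 744 and 707 normalized CPM in TAM long and 244 and 253 in DMBA+TAM. It lay between 721 and 1243 in the other 6 libraries. *Lgr5*, the receptor for R-spondins that marks crypt base stem cells, had 28 and 40 counts in TAM long and 40 and 26 in DMBA+TAM, that is 2.41 and 3.93 against 21.1 and 11.4 normalized CPM. Its levels did not overlap (log2 fold change 2.35, SE 0.39, edgeR adjusted p = 0.000628), although the number of reads behind them was similar in both groups. *Smoc2*, a matricellular protein of stem cells that stromal cells also make, had 14.1 and 18.8 normalized CPM against 46.4 and 47.3 (log2 fold change 1.51, SE 0.20). *Bmi1*, a Polycomb protein made in many tissues, had 33.5 and 39.9 against 53.8 and 43.4, and its call was lost without DMBA+TAM replicate 1 or TAM long replicate 1 (edgeR adjusted p = 0.272 and 0.274) and also with DESeq2 (0.0516), with no filter (0.167), with the 4 libraries alone (0.068) and with thinned counts (0.0647). The defining stem cell genes *Ascl2* and *Olfm4* were not called, with 21 and 11 counts of *Ascl2* in TAM long and 1 and 2 in DMBA+TAM, and at most 3 counts of *Olfm4* in any of the 4 libraries. *Sox9*, a transcription factor of the crypt, had 59.2 and 47.3 normalized CPM against 8.96 and 6.57. *Ephb2*, the ephrin receptor graded along the crypt, had 28.3 and 28.9 against 7.91 and 14.5 (log2 fold change -1.33, SE 0.29). *Rnf43*, a ubiquitin ligase that removes Wnt receptors, had 197 and 149 counts in TAM long and none in DMBA+TAM, at least 22.1-fold lower. *Slc12a2*, an ion transporter enriched in the crypt, had 412 and 366 normalized CPM against 40.1 and 46. Of the 6 stem cell genes that the study itself names, 5 were called higher and *Ephb3* was not (19.8 and 20.3 against 25.8 and 20.6 normalized CPM). Since the study reports them as upregulated in these samples, their direction is not independent evidence.

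**Figure D2:**
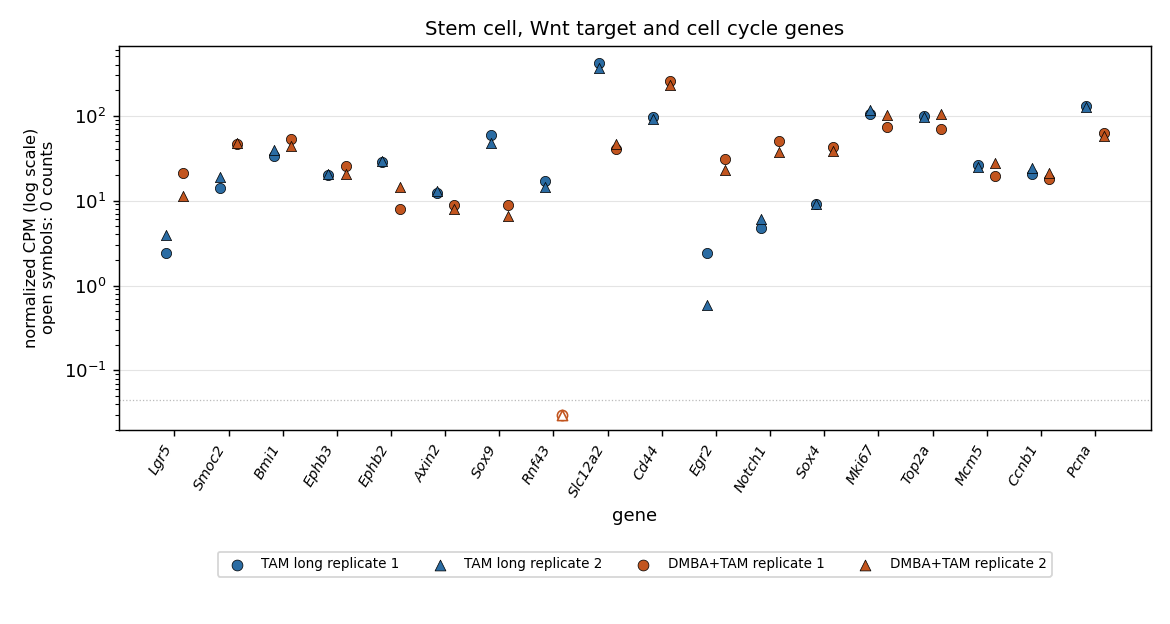
Normalized CPM (vertical log axis) of stem cell, Wnt target and cell cycle genes in the TAM long libraries (blue) and the DMBA+TAM libraries (orange), with circles for replicate 1, triangles for replicate 2 and open symbols below the dotted line for 0 counts. The DMBA+TAM values of *Lgr5* (21.1 and 11.4) lie above those of TAM long (2.41 and 3.93), those of *Slc12a2* lie below, and those of *Mki67* and *Top2a* lie among or beside the TAM long values.

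Genes of dividing cells were similar in both groups. Of 20 tested, 15 were not called, 3 were called lower and 2 higher (median log2 fold change -0.18, close to the -0.14 of all tested genes). Without DMBA+TAM replicate 2 the number lower was 5, and without it or either TAM long library the number higher was 1. *Mki67*, the proliferation antigen Ki-67, had 104 and 116 normalized CPM in TAM long and 73.8 and 102 in DMBA+TAM (log2 fold change -0.32, SE 0.18, edgeR adjusted p = 0.168). *Top2a*, the topoisomerase of dividing cells, had 99.3 and 96.8 against 69 and 104. DMBA+TAM replicate 1 was the lower of its pair for both genes, and without DMBA+TAM replicate 2 both were called lower (log2 fold changes -0.58 and -0.51, edgeR adjusted p = 0.0446 and 0.0274). *Pcna*, the sliding clamp of DNA replication, was called lower with 130 and 126 normalized CPM against 63.2 and 58.3. *Foxm1*, a transcription factor of the cell cycle, was called higher, at 4.82 and 5.89 against 17.4 and 15.8 (log2 fold change 1.63, SE 0.21).

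Genes of fibroblasts and of the interstitial matrix were higher throughout. Of 22 tested, 22 were called higher (median log2 fold change 4.46, lowest 1.49, highest 6.11), and their sum rose from 2528 and 3191 normalized CPM in TAM long to 55960 and 56352 in DMBA+TAM, above the 1098 to 4614 of the other 6 libraries. *Col1a1* and *Col3a1* encode the main fibrillar collagens of connective tissue. *Col1a1* had 98.9 and 130 normalized CPM in TAM long and 7543 and 8277 in DMBA+TAM (log2 fold change 6.11, SE 0.22, edgeR adjusted p = 3.32e-08). *Col3a1* had 519 and 706 against 13546 and 13365 (log2 fold change 4.46, SE 0.21). The replicates of DMBA+TAM were nearly equal for both, and far from TAM long. *Fn1*, fibronectin, had 208 and 316 normalized CPM against 6953 and 7316. *Thy1*, a surface glycoprotein of fibroblasts, had 21.1 and 20.9 against 641 and 721 (log2 fold change 5.02, SE 0.14). *Pi16*, a marker of fibroblasts around vessels, had 3.53 and 8.05 against 393 and 286. Smaller rises were seen for *Dcn*, the collagen-binding proteoglycan decorin, at 221 and 267 against 1183 and 1139, and for *Pdgfra*, the growth factor receptor of fibroblasts, at 76.7 and 77.9 against 229 and 204. Thus fibroblast genes were also present in TAM long, at a lower level. The list of epithelial genes fell as this list rose, and how much each contributes to the other's share of the reads was not tested.

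Transcription factors of mesenchyme and of epithelial-mesenchymal transition (EMT), the program by which epithelial cells lose their junctions, were mostly higher. Of 14 tested genes, 11 were called higher and 3 lower (median 3.07). *Snai1*, a repressor of *Cdh1*, had 1.64 and 0.785 normalized CPM in TAM long and 27.4 and 36.4 in DMBA+TAM (log2 fold change 4.69, SE 0.39, edgeR adjusted p = 4.59e-06). *Twist1*, a helix-loop-helix factor, had 4.48 and 2.75 against 29 and 33.7. *Snai2* had 2.93 and 5.5 against 16.3 and 19.3, and *Zeb1* 32.3 and 38.5 against 78.5 and 72.7. None of these genes overlapped between the groups, and the rise of *Zeb1* was the smallest of these 4 (log2 fold change 1.10, SE 0.21). *Vim*, the intermediate filament vimentin, had 135 and 159 normalized CPM against 1692 and 1528. *Prrx1*, a homeobox factor of limb and trunk mesenchyme, had 2 and 3 counts in TAM long and 685 and 706 in DMBA+TAM, the largest rise of the list (log2 fold change 10.42, SE 0.30). The members called lower, *Foxf1*, *Foxf2* and *Tcf21*, are factors of mesenchyme around the gut and other viscera. *Foxf1* had 28.3 and 25.3 normalized CPM against 1.05 and 0.876. *Foxf2* had 172 and 157 counts against 1 in each DMBA+TAM library, a ratio of 31.5 (8.66 to 262), and *Tcf21* had 266 and 265 counts against 0 and 1, a ratio of 102 (18.2 to 4029). The study itself reports *Snai1*, *Snai2*, *Twist1*, *Vim* and fibronectin as upregulated in these samples, so their direction is not independent evidence. Fibroblasts use many genes of this list as well, and the part of fibroblasts in their levels was not tested.

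**Figure D3:**
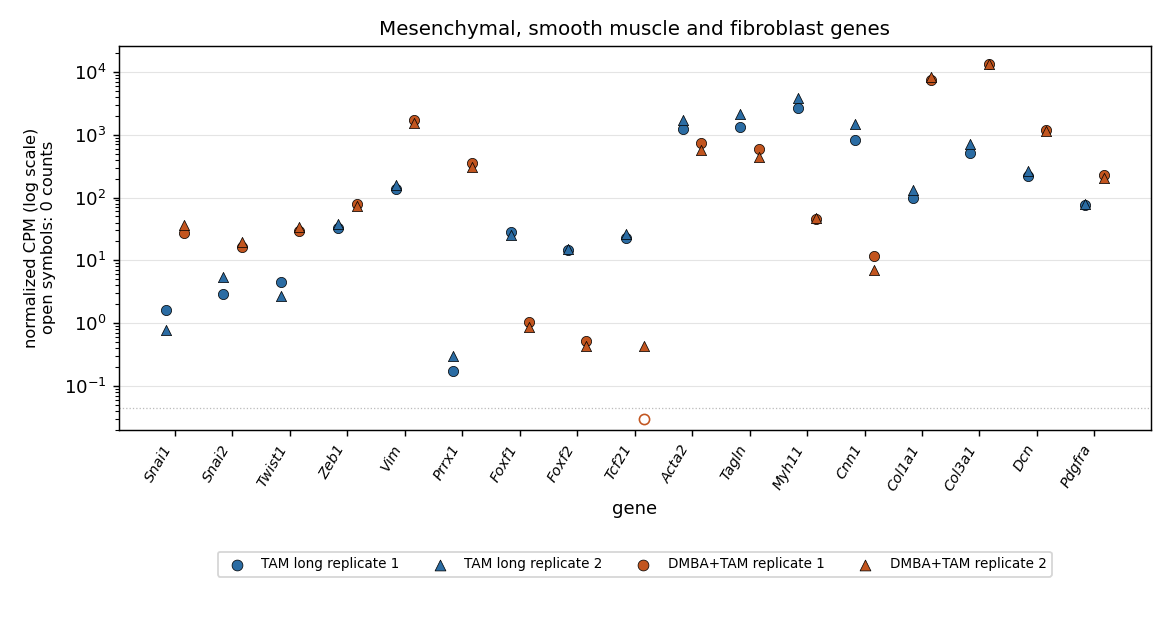
Normalized CPM (vertical log axis) of mesenchymal, smooth muscle and fibroblast genes in the TAM long libraries (blue) and the DMBA+TAM libraries (orange), with circles for replicate 1, triangles for replicate 2 and an open symbol below the dotted line for 0 counts. *Snai1*, *Prrx1*, *Col1a1* and *Col3a1* lie higher in both DMBA+TAM libraries, while *Foxf1*, *Foxf2*, *Tcf21*, *Myh11* and *Cnn1* lie lower.

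Smooth muscle genes moved against the fibroblast genes. Of 15 tested, 14 were called lower and none higher (median -2.81), and their sum was 11969 and 17590 normalized CPM in TAM long and 2032 and 2680 in DMBA+TAM. It was 3888 and 3434 in the control libraries, 3765 and 2116 in TAM short and 16848 and 9981 in DMBA, so the DMBA+TAM values lay near or below those of control and TAM short. *Myh11*, the myosin heavy chain of smooth muscle, had 2680 and 3853 normalized CPM against 44.8 and 46.9 (log2 fold change -6.15, SE 0.45, edgeR adjusted p = 1.97e-06). *Cnn1*, or calponin, had 828 and 1505 against 11.6 and 7.01. *Acta2* and *Tagln*, which activated fibroblasts also make, fell less. *Acta2* had 1248 and 1725 normalized CPM against 732 and 570 (log2 fold change -1.19, SE 0.28), and its call was lost without DMBA+TAM replicate 2 (log2 fold change -1.02, edgeR adjusted p = 0.0506). *Tagln* had 1333 and 2140 against 601 and 447. *Des*, the filament desmin of all muscle, had 57 counts in DMBA+TAM replicate 1 and 1122 in replicate 2, a difference between replicates that went with the skeletal muscle genes described next, and its call as lower was lost without TAM long replicate 2 (edgeR adjusted p = 0.112). Of 3 tested markers of interstitial cells of Cajal, the pacemakers of gut muscle, 2 were called lower. *Ano1* had 53.7 and 109 normalized CPM against 2.11 and 3.94, and *Kit* 48.1 and 54 against 10.5 and 13.1. The other marker, *Etv1*, was not called and went the other way (log2 fold change 0.68).

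Skeletal muscle genes were high in a single library, DMBA+TAM replicate 2. The sum of the list was 18.3 and 19.8 normalized CPM in TAM long, 12.6 in DMBA+TAM replicate 1 and 10127 in replicate 2. *Acta1*, the actin of skeletal muscle, had 31 and 20 counts in TAM long and 1 and 4740 in DMBA+TAM. *Myh4*, a fast myosin heavy chain, had 0 and 1 counts in TAM long and 2 and 7004 in DMBA+TAM. For both genes replicate 1 of DMBA+TAM stood with TAM long and replicate 2 stood apart. All 11 tested members were called higher (median 7.99), and without DMBA+TAM replicate 2 the number was 1, while *Acta1*, *Ckm* and *Mylpf* turned to log2 fold changes of -2.11, -4.29 and -1.15 that were not called. The calls of *Myh4* and *Ckm* were also lost without TAM long replicate 1 (edgeR adjusted p = 0.0587 and 0.125) or replicate 2 (0.0536 and 0.0996). The muscle stem cell factors *Myod1* and *Pax7* had at most 1 count in each of the 4 libraries.

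Fat cell genes were higher in both DMBA+TAM libraries, and more so in replicate 1. Of 12 tested, 11 were called higher and 1 lower (median 6.03), and their sum was 324 and 236 normalized CPM in TAM long and 12016 and 5524 in DMBA+TAM. *Adipoq*, the hormone adiponectin of fat cells, had 2.76 and 0.294 normalized CPM against 433 and 210 (log2 fold change 7.65, SE 0.90, edgeR adjusted p = 5.75e-05). *Plin1*, which coats lipid droplets, had 0.689 and 0.393 against 154 and 77.5. *Lep*, the hormone leptin, had 1 count in each TAM long library and 128 and 19 in DMBA+TAM, a ratio of 383 (104 to 3195). DMBA+TAM replicate 1 was the higher of its pair for these genes, and both lay above TAM long. The member called lower was *Pparg*, a nuclear receptor that colon epithelium also makes, with 117 and 76.9 normalized CPM against 30.6 and 11. Of 5 tested genes of the hemoglobin list, which come from red blood cells, 4 were called higher and none lower (median log2 fold change 3.86). The remaining member, *Hba-a2*, was not called (log2 fold change -0.49). *Hba-a1* and *Hbb-bs* showed the same order of replicates as the fat cell genes. *Hba-a1* had 22.5 and 19.4 normalized CPM in TAM long and 459 and 152 in DMBA+TAM. *Hbb-bs* had 35.4 and 30.6 against 599 and 165. The copies *Hba-a1* and *Hba-a2* are nearly identical, as are *Hbb-bs* and *Hbb-bt*, so reads may be split between them in an uncertain way.

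**Figure D4:**
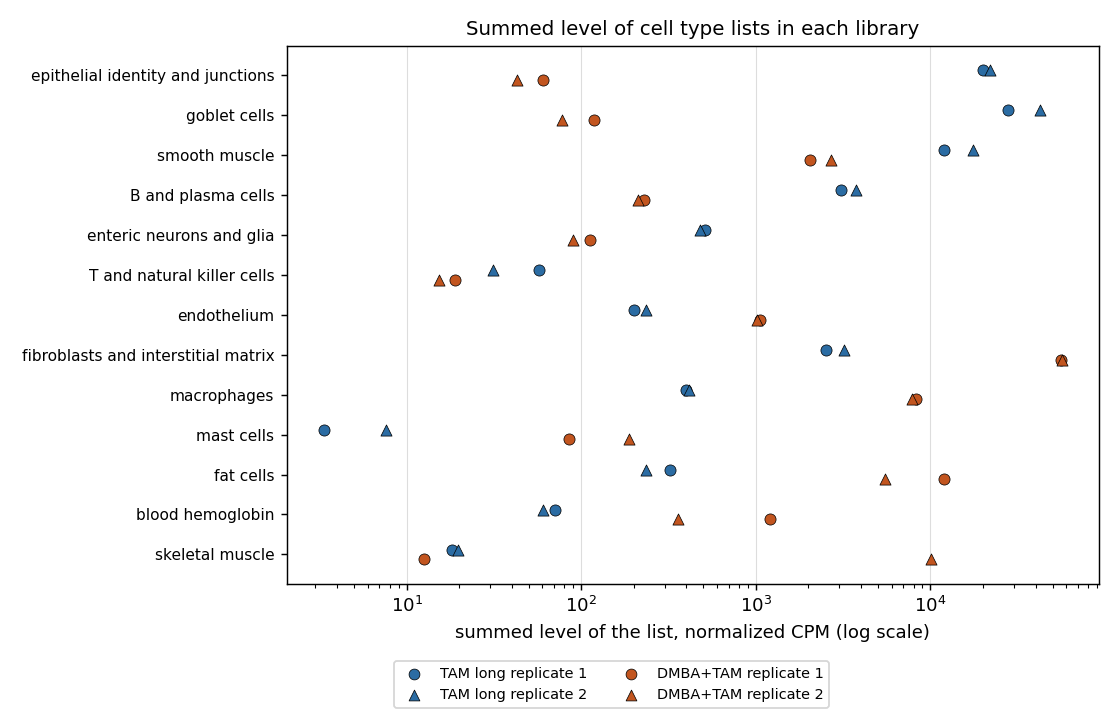
Summed normalized CPM (horizontal log axis) of 13 lists of cell type genes in each of the 4 libraries, with TAM long in blue, DMBA+TAM in orange, circles for replicate 1 and triangles for replicate 2. The epithelial list falls from 19994 and 22055 to 60.6 and 42.9, the fibroblast list rises to 55960 and 56352, and the skeletal muscle list reaches 10127 in DMBA+TAM replicate 2 only.

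Most genes of vessels were higher, and genes of the outer lining of the gut were split. Of 14 tested genes of endothelium, the lining of vessels, 12 were called higher and 1 lower (median 2.30), and their sum was 201 and 236 normalized CPM in TAM long and 1063 and 1022 in DMBA+TAM. *Pecam1*, an adhesion molecule of endothelial junctions, had 32 and 39.9 normalized CPM against 218 and 219 (log2 fold change 2.61, SE 0.17, edgeR adjusted p = 8.89e-07). *Cdh5*, the cadherin of endothelium, had 10.6 and 14.6 against 142 and 143, and *Lyve1*, a receptor of lymphatic vessels and some macrophages, 22.7 and 26.1 against 135 and 95.5. The groups did not overlap for any of these. *Prox1*, a factor of lymphatic vessels, was the member called lower, with 109 and 68 counts in TAM long and 6 and 7 in DMBA+TAM, and its call was lost without DMBA+TAM replicate 1, DMBA+TAM replicate 2 or TAM long replicate 1 (edgeR adjusted p = 0.0653, 0.085 and 0.0725). Mesothelium, the sheet that covers the gut, had 4 of 7 tested genes called lower and 1 higher (median -7.94, or -2.42 with bounds), with 2 lower without either DMBA+TAM library and none higher without either TAM long library. *Msln*, or mesothelin, had 102 and 75 counts in TAM long and none in DMBA+TAM, at least 11.3-fold lower. In the nerve list, 6 of 14 tested genes were called lower and 3 higher, or 1 without DMBA+TAM replicate 1 (median -1.33, or -1.03 with bounds). *Vip*, a peptide of enteric neurons, had 374 and 447 counts in TAM long and none in DMBA+TAM, at least 52.5-fold lower. Glial genes did not share a direction. *S100b* was called higher, at 2.76 and 3.14 normalized CPM against 8.43 and 7.01. Schwann cells outside the gut also make it, and its call was lost without DMBA+TAM replicate 1 or TAM long replicate 1 (edgeR adjusted p = 0.0531 and 0.0696). *Gfap*, a filament of glia, was called lower at 6.63 and 6.58 against 2.64 and 0.876, and its call was lost without any 1 of the 4 libraries (edgeR adjusted p 0.0612 to 0.27). *Erbb3*, a receptor that epithelium also makes, was called lower at 393 and 357 against 11.1 and 4.82, and *Sox10*, a factor of glia, was not called, with at most 9 counts in any of the 4 libraries.

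Immune cell genes did not move alike across cell types. Of 14 macrophage genes, 14 were called higher (median 4.42), and their sum was 397 and 412 normalized CPM in TAM long and 8311 and 7803 in DMBA+TAM, against 362 to 538 in the other 6 libraries. *Adgre1*, which encodes the macrophage antigen F4/80, had 8.35 and 7.46 normalized CPM against 422 and 437 (log2 fold change 5.76, SE 0.24, edgeR adjusted p = 6.62e-08). *Csf1r*, the receptor on which macrophages depend, had 17.2 and 19 against 452 and 387, and *C1qa*, a subunit of complement, 65.8 and 58 against 1065 and 1017. *Cd163*, a scavenger receptor of tissue macrophages, had 10 and 28 counts in TAM long and 656 and 747 in DMBA+TAM, the largest rise of the list (log2 fold change 7.57, SE 0.40). Replicates agreed closely within DMBA+TAM for these genes.

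Genes of neutrophils and of acute inflammation were higher too, with 14 of 16 tested called higher and none lower (median 4.28). *S100a9*, a calcium-binding protein of neutrophils, had 4 and 2 counts in TAM long and 71 and 49 in DMBA+TAM (log2 fold change 6.66, SE 0.55). *Il6*, an inflammatory cytokine, had no count in TAM long and 18 and 17 in DMBA+TAM, at least 60.8-fold higher. *Il1b*, another such cytokine, had 1.72 and 2.75 normalized CPM against 43.2 and 22.3. In any library outside DMBA+TAM, *Il6* had at most 1 count, *S100a9* at most 5 and *S100a8* of the same list at most 9. These genes passed the filter only through DMBA+TAM, so their direction was largely fixed beforehand and their calls are no separate evidence. *Tnf* and *Nos2* were not called, with 5.43 and 3.63 normalized CPM of *Tnf* against 7.38 and 4.38. Of 7 tested mast cell genes, 5 were called higher, among them *Cma1*, a chymase, with 1 and 9 counts in TAM long and 34 and 108 in DMBA+TAM, and *Mcpt4*, a mast cell protease, with 4 and 12 against 35 and 93. Mast cell genes were higher in DMBA+TAM replicate 2 than in replicate 1.

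Lymphocyte genes were mixed, with more members called lower than higher. Of 14 tested genes of T and natural killer cells, 8 were called lower and 1 higher (median -2.20, or -1.59 with bounds), and 4 lower without either DMBA+TAM library. *Cd3g*, a chain of the T cell receptor complex, had 62 and 36 counts in TAM long and none in DMBA+TAM, at least 6.26-fold lower. The member called higher was *Cd4*, which macrophages can also make, at 1.55 and 2.36 normalized CPM against 8.96 and 8.76. Of 13 tested genes of B and plasma cells, 5 were called lower and none higher (median -2.30, or -1.13 with bounds), and 3 without DMBA+TAM replicate 2. *Jchain*, which joins secreted antibodies, had 12501 and 15066 counts in TAM long and 3 and 1 in DMBA+TAM (log2 fold change -10.35, SE 0.72, edgeR adjusted p = 1.42e-06). *Igkc*, the constant part of the kappa light chain, had 20147 and 20383 counts against 4 and 5. The TAM long libraries, labelled as organoids, thus held RNA of plasma cells as well as of smooth muscle. *Cd79a* and *Ms4a1*, markers of B cells, were low in all 4 libraries and not called.

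The proteins of the basement membrane, the mat on which epithelium and vessels rest, split by subunit. Of 19 tested genes, 11 were called higher and 7 lower (median 2.29). *Col4a1*, a collagen of all basement membranes, had 185 and 221 normalized CPM in TAM long and 1967 and 1963 in DMBA+TAM (log2 fold change 3.28, SE 0.19, edgeR adjusted p = 4.23e-07). *Nid1*, nidogen, had 58.6 and 65.5 against 852 and 825, and the laminin chain *Lama2* of muscle and nerve 10.7 and 10.2 against 148 and 126. The laminin chains of epithelia went the other way. *Lamb3* had 199 and 186 normalized CPM against 9.49 and 4.38, and *Lama3* 52.4 and 51.5 against 2.64 and 3.07. *Itgb4*, the integrin chain that anchors epithelial cells to these laminins, had 104 and 126 against 7.91 and 14 (log2 fold change -3.36, SE 0.23). The lists of epithelial, fibroblast and endothelial genes moved along with these subunits, and their part in them was not tested.

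Most enzymes that cut the matrix and most of their inhibitors were higher. Of 19 tested, 15 were called higher and 2 lower (median 3.83), and their sum was 389 and 419 normalized CPM in TAM long and 4383 and 4430 in DMBA+TAM, against 344 to 513 in the other 6 libraries. *Mmp3*, stromelysin, had 10 and 39 counts in TAM long and 349 and 395 in DMBA+TAM (log2 fold change 6.28, SE 0.54, edgeR adjusted p = 5.8e-06). *Mmp13*, a collagenase, had 4.82 and 4.02 normalized CPM against 64.8 and 41.2 (log2 fold change 3.57, SE 0.31). *Mmp2*, a gelatinase of stromal cells, had 45.6 and 43.7 against 708 and 798, and its membrane-bound activator *Mmp14* 48.1 and 61 against 781 and 833. *Timp1*, an inhibitor of these enzymes, had 26 and 39 counts in TAM long and 838 and 1092 in DMBA+TAM, the largest rise of the list (log2 fold change 7.26, SE 0.25). Every DMBA+TAM value of these genes lay above every TAM long value. The members called lower were *Mmp15*, a membrane enzyme of epithelia, at 108 and 109 normalized CPM against 10 and 18.8, and *Mmp7*, matrilysin, with 166 and 30 counts in TAM long and none in DMBA+TAM. The call of *Mmp7* was lost without DMBA+TAM replicate 1, DMBA+TAM replicate 2 or TAM long replicate 1 (edgeR adjusted p = 0.123, 0.154 and 0.102).

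The promoters of *Mmp3* and *Mmp13* are shown because these genes rose together and both promoters hold the motif TGAGTCA, which reads as TGACTCA on the other strand and which factors of the *Fos* and *Jun* families are known to bind. They are given as above, at chr9:7445572-7445871 for *Mmp3* and chr9:7272264-7272563 for *Mmp13*, both on the plus strand, with the motif in capitals.
*Mmp3*: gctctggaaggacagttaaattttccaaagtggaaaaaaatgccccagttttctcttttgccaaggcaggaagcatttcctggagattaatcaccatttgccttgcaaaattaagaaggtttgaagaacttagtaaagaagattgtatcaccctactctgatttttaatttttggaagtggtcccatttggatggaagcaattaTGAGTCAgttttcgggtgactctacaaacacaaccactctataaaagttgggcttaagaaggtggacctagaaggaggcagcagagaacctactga
*Mmp13*: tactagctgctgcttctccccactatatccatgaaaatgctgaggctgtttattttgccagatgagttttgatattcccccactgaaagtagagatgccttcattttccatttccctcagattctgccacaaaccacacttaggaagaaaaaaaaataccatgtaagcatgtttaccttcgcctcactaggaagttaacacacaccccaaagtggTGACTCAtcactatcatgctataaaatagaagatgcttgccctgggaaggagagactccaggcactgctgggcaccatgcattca
The motif begins 46 bases before the start site of *Mmp3* and 35 bases before that of *Mmp13*. It was found in 4 of 17 promoters of the 15 genes of the list with a promoter in the table (23.5%), in 1 of 16 promoters of the epithelial list (6.25%) and in 5.2% of all 32851 promoters. *Fos* and *Jun* themselves were called lower in DMBA+TAM, *Fos* at 157 and 200 normalized CPM against 55.3 and 35.5 and *Jun* at 162 and 152 against 90.7 and 91.6, and binding was not measured. This motif, too, was chosen with the values known.

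In the list of TGF-beta and BMP signalling, 14 of 20 tested genes were called higher and 4 lower (median 1.33). The ligands *Tgfb1* and *Tgfb3* were higher, *Tgfb1* with 12 and 10.1 normalized CPM against 139 and 142 (log2 fold change 3.67, SE 0.15, edgeR adjusted p = 4.85e-08) and *Tgfb3* with 11.3 and 15.5 against 114 and 116. The receptor *Tgfbr2* had 67.1 and 67.6 against 546 and 631. *Ltbp2*, which binds the latent form of these ligands, had 17 counts in each TAM long library and 1150 and 1428 in DMBA+TAM (log2 fold change 8.61, SE 0.21). The targets of BMP signals in the Id family did not share a direction. *Id1* was called lower, with 98.4 and 116 normalized CPM against 25.3 and 27.2. *Id2* was called higher at 21.3 and 21.7 against 54.8 and 29.4, and its call was lost without DMBA+TAM replicate 1 (edgeR adjusted p = 0.0629). *Id3* was called higher at 63 and 62.4 against 74.3 and 86.8, and its call was lost without DMBA+TAM replicate 2, TAM long replicate 1 or TAM long replicate 2 (edgeR adjusted p = 0.265, 0.148 and 0.15). The signal transducers *Smad2* and *Smad3* were not called. *Smad7*, an inhibitor of the pathway, had 45.1 and 57 against 25.8 and 38.6, and its call was lost without DMBA+TAM replicate 1 or TAM long replicate 2 (edgeR adjusted p = 0.208 and 0.157).

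Signals that stromal cells send to the epithelium did not share a direction, with 10 of 19 tested genes called higher and 4 lower (median 0.80). Fewer were called lower without either DMBA+TAM library or TAM long replicate 2. The sum of the list was 288 and 434 normalized CPM in TAM long and 861 and 817 in DMBA+TAM, against 189 to 408 in the other 6 libraries. *Rspo3*, an R-spondin that sustains *Lgr5*+ cells, had 84 and 114 counts in TAM long and 1 and 5 in DMBA+TAM (log2 fold change -2.67, SE 0.53, edgeR adjusted p = 0.00181). *Rspo1* had 16 and 13 counts against 0 and 1 and was not called. *Grem1*, an antagonist of BMP, had 62.4 and 156 normalized CPM against 39 and 25.8, and its call was lost without DMBA+TAM replicate 2 or TAM long replicate 2 (edgeR adjusted p = 0.114 and 0.129). *Igf1*, a growth factor, had 22 and 28.7 against 231 and 281, and *Il33*, an alarm cytokine of stromal cells, 5.51 and 6.18 against 255 and 182. Among ligands that the epithelium makes for itself, *Areg*, an EGF family ligand, had 166 and 142 counts in TAM long and none in DMBA+TAM, at least 19.7-fold lower, and *Tgfa* had 359 and 326 counts against 3 and 2. Of the 9 tested in that list, 5 were called lower and 2 higher, with 3 lower without DMBA+TAM replicate 2 and 1 higher without either DMBA+TAM library or TAM long replicate 2.

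Target genes of the Wnt pathway, which drives crypt stem cells, were split. Of 17 tested, 6 were called higher, 4 lower and 7 were not called (58.8% called, near the 55.2% of all tested genes, median -0.05). With members going both ways, this median does not show that the list stayed level. The sum of the list was 361 and 343 normalized CPM in TAM long and 612 and 523 in DMBA+TAM, against 255 to 411 in the other 6 libraries. *Axin2*, a feedback inhibitor that is a common readout of the pathway, had 12.3 and 13.1 normalized CPM in TAM long and 8.96 and 7.89 in DMBA+TAM, and was not called (log2 fold change -0.59, SE 0.24, edgeR adjusted p = 0.0564), although with no filter on low counts it was called lower (-0.64, edgeR adjusted p = 0.0438). *Myc*, at 11.5 and 12.6 against 7.91 and 12.7, and *Ccnd1*, at 61.8 and 57.1 against 61.1 and 53.5, were not called either. *Nkd1*, another feedback inhibitor, was called lower at 22.4 and 20.6 against 3.16 and 5.26. Those called higher included the secreted Wnt antagonists *Dkk2*, at 4.13 and 8.34 against 103 and 70.1, and *Wif1*, with 14 and 13 counts in TAM long and 13 and 22 in DMBA+TAM. So the feedback genes and the antagonists of the list did not share a direction.

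Feedback and target genes of ERK showed 6 of 16 tested called higher and 2 lower (50% called, against 55.2% of all tested genes, median 0.43). *Etv4*, a transcription factor downstream of ERK, had 4.31 and 5.2 normalized CPM against 36.9 and 26.7 (log2 fold change 2.74, SE 0.36, edgeR adjusted p = 0.000118). *Spry4*, a feedback inhibitor, had 7.06 and 5.99 against 21.1 and 24.1. *Dusp6*, the phosphatase most often read as ERK output, had 64.1 and 79.4 against 82.7 and 78.9 and was not called, and *Spry2* had 19.2 and 19.9 against 15.8 and 14 and was not called. Both genes called lower, *Egr1* and *Phlda1*, lost their call without DMBA+TAM replicate 2 (edgeR adjusted p = 0.106 and 0.206) or TAM long replicate 1 (0.112 and 0.0947). In the PI3K and AKT pathway, 9 of 22 tested genes were called higher, 2 lower and 11 were not called (again 50% called, median 0.20), with 1 lower without DMBA+TAM replicate 1 or TAM long replicate 2. The largest rises were those of *Inpp5d*, a lipid phosphatase of blood cells, at 7.24 and 6.28 normalized CPM against 99.6 and 97.7, and of *Pik3cd*, the catalytic subunit of leukocytes, at 6.55 and 5.79 against 56.4 and 51.7. *Gsk3b* and *Mtor* were not called. Phosphorylation, by which these kinases act, is not measured by RNA-seq, and macrophage genes rose along with the leukocyte members, whose part was not tested.

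Subunits of PP2A did not share a direction. Of 20 tested genes of the complex and its inhibitors, 3 were called higher, 6 lower, *Ppp2r1a* among them, and 11 were not called (45% called, against 55.2% of all tested genes, median -0.30, from -0.89 to 0.80). *Ppp2r3a*, a regulatory subunit, had 40.3 and 44 normalized CPM in TAM long and 15.3 and 52.1 in DMBA+TAM and was not called (log2 fold change -0.29), but without DMBA+TAM replicate 2 it was called lower (log2 fold change -1.46, edgeR adjusted p = 0.0151). With libraries scaled by their totals alone, 3 were called lower. *Ppp2r1b*, the alternative scaffold, had 27.7 and 37.1 normalized CPM in TAM long and 62.7 and 50.4 in DMBA+TAM (log2 fold change 0.80, SE 0.18, edgeR adjusted p = 0.00344). *Ppp2ca*, the main catalytic subunit, had 285 and 259 against 149 and 144 (log2 fold change -0.89, SE 0.11). Both moved by more than the spread of their replicates, in opposite directions. The inhibitors *Cip2a*, at 18.5 and 22.1 against 20.6 and 21.5, and *Set*, at 211 and 197 against 260 and 218, were not called, *Set* being called higher with libraries scaled by their totals alone (edgeR adjusted p = 0.0299).

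Genes that sense or convert DMBA gave a mixed result. Of 12 tested genes of the aryl hydrocarbon receptor and of DMBA metabolism, 4 were called higher and 3 lower (58.3% called, near the 55.2% of all tested genes, median -1.01, or -0.45 with bounds), and 5 lower without TAM long replicate 2. *Cyp1b1*, the P450 enzyme best known for activating DMBA, had 14 and 9 counts in TAM long and 214 and 493 in DMBA+TAM (log2 fold change 7.27, SE 0.38, edgeR adjusted p = 2.34e-07). Fibroblasts make this enzyme too, and their part in its level was not tested. *Ephx1*, the microsomal epoxide hydrolase of the same route, had 21.6 and 22.8 normalized CPM against 49 and 42.1, and *Ahr*, the receptor itself, 17.6 and 20.8 against 40.1 and 48.6. *Cyp1a1*, its most used target, had at most 4 counts in any of the 4 libraries. *Ahrr* and *Tiparp*, also targets, were not called, and *Nqo1* was called lower at 58.4 and 32.9 against 5.8 and 3.94. In the list of p53 targets, genes switched on after DNA damage, 10 of 20 tested were called higher and 4 lower (median 0.79). *Cdkn1a*, the cell cycle inhibitor p21, was called lower at 186 and 212 normalized CPM against 66.4 and 71.9 (log2 fold change -1.52, SE 0.14). *Mdm2*, the feedback regulator of p53, had 51.1 and 48.3 against 56.4 and 53 and was not called. *Phlda3*, an inhibitor of AKT, was called higher at 9.99 and 10.6 against 67.5 in each library, *Eda2r*, a death receptor of the tumor necrosis factor family, at 1.55 and 3.93 against 17.9 and 31.1, and *Bax*, a mediator of apoptosis, at 39.1 and 32.6 against 61.1 and 52.6. *Perp*, an apoptosis gene that is also part of epithelial desmosomes, had 292 and 320 against 0 and 1.75. Of 14 immediate early and heat shock genes, which respond to handling and stress of tissue, 9 were called lower and none higher (median -0.80), among them *Hspa1a* with 119 and 109 counts in TAM long against 8 and 4.

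Homeobox genes of the Hox clusters, whose expression records the position of a cell along the body axis, were called higher or lower in some members only. Of 10 tested posterior Hox genes, 5 were called lower and 1 higher (median -4.03, or -2.47 with bounds), and 2 higher without DMBA+TAM replicate 2. *Hoxa13* had 22 and 50.1 normalized CPM in TAM long and 3.16 and 0.876 in DMBA+TAM (log2 fold change -4.21, SE 0.65, edgeR adjusted p = 0.00086). *Hoxa11* had 110 and 158 counts in TAM long and none in DMBA+TAM, at least 17.1-fold lower. *Hoxa9* and *Hoxa10* of the same cluster were called lower as well (log2 fold changes -3.12 and -3.86). *Hoxb13*, found in the distal colon, had 13 counts in TAM long replicate 1 and 118 in replicate 2 and none in DMBA+TAM, and was not called. Its spread in the fit also includes the DMBA libraries, where *Hoxb13* had 29 and 1660 counts. With no filter on low counts or with the replicate block it was called lower (edgeR adjusted p = 4.69e-11 and 0.0108). The genes of the HoxC cluster that passed the filter on low counts were called higher. These counts were not all particular to DMBA+TAM, since *Hoxc6* had 28 and 19 in control and 29 and 21 in TAM short, but 3 and 0 in DMBA. *Hoxc6* had 4 and 2 counts in TAM long and 34 and 43 in DMBA+TAM (log2 fold change 5.99, SE 0.57, edgeR adjusted p = 1.2e-05), *Hoxc4* had 6 and 5 against 38 and 32, and *Hoxc8* had 2 and 0 against 52 and 18, a ratio of 183 (48.7 to 1537). *Hoxc9* had 1 and 0 counts against 22 and 8, a ratio of 156 (26 to 6383). It had at most 2 counts in any library outside DMBA+TAM. Since it passed the filter only through its DMBA+TAM counts, its direction was largely fixed beforehand, and its call is no separate evidence. Of 19 tested anterior and middle Hox genes, 4 were called higher, all 4 in the HoxC cluster, and 2 lower (*Hoxa5* and *Hoxa7*). Without TAM long replicate 1 the number higher was 7. The call of *Hoxa5* was lost without DMBA+TAM replicate 1, DMBA+TAM replicate 2 or TAM long replicate 2 (edgeR adjusted p = 0.0651, 0.0604 and 0.0701). *Hoxb6* differed more between the TAM long replicates (62.4 and 9.91 normalized CPM) than between the groups.

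**Figure D5:**
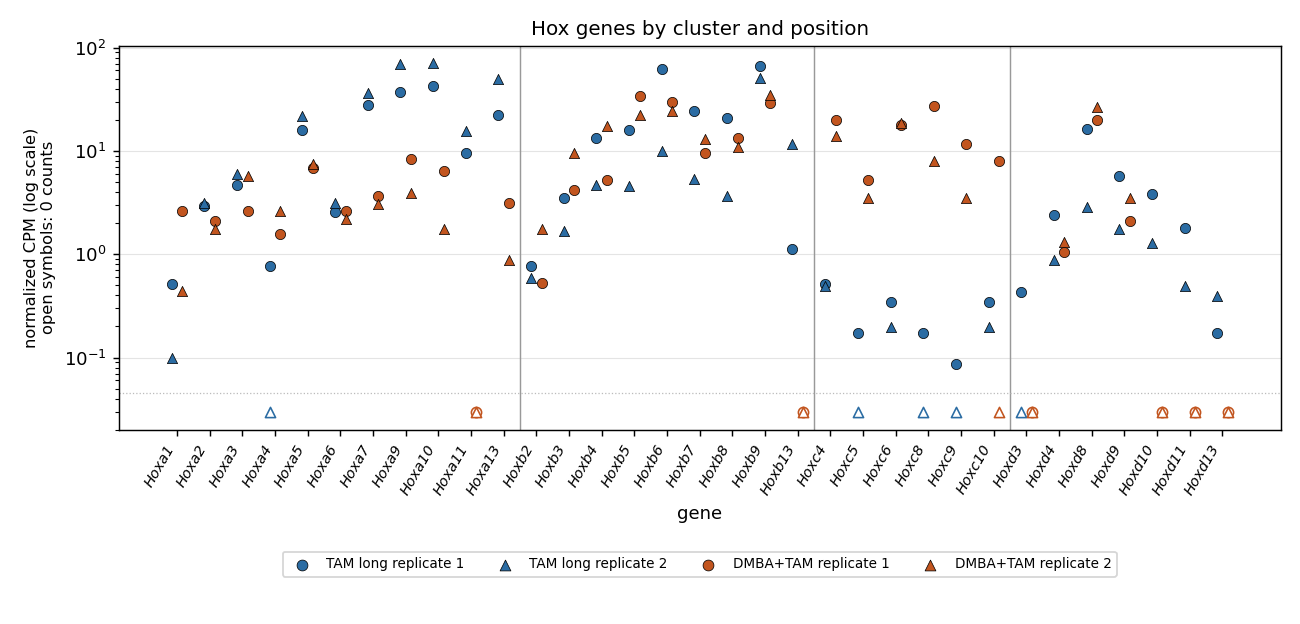
Normalized CPM (vertical log axis) of the Hox genes with at least 1 count, ordered by cluster from HoxA to HoxD with grey lines between clusters, in TAM long (blue) and DMBA+TAM (orange). Circles stand for replicate 1, triangles for replicate 2 and open symbols below the dotted line for 0 counts, and *Hoxc4* to *Hoxc9* lie higher in DMBA+TAM while *Hoxa7* to *Hoxa13* lie lower.

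Of 12 tested genes encoded by mitochondrial DNA, 10 were called lower and none higher (median -1.32), and mitochondrial genes took 4.16% and 4.35% of all counts in TAM long and 1.63% and 1.73% in DMBA+TAM. The Y-linked genes *Ddx3y*, *Eif2s3y*, *Kdm5d* and *Uty* were detected in all 4 libraries, with *Ddx3y* called higher at 71.8 and 81.1 normalized CPM in TAM long and 138 and 139 in DMBA+TAM, *Eif2s3y* called lower at 95.9 and 95 against 61.7 and 61.8, and *Kdm5d* and *Uty* not called. *Xist*, the RNA of the inactive X chromosome, had 17 and 15 counts in TAM long and none in DMBA+TAM, and its call as lower was lost without either DMBA+TAM library (edgeR adjusted p = 0.0622 and 0.08).

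The largest fitted rises, among called genes with at least 50 counts in each library of the higher group, were led by matrix genes of bone and cartilage and by granzymes. *Col10a1*, a collagen of cartilage that turns to bone, had no count in TAM long and 3065 and 2068 counts in DMBA+TAM, at least 8924-fold higher. *Spp1*, osteopontin, had 5 and 4 counts against 3600 and 5352 (log2 fold change 12.28, SE 0.24, edgeR adjusted p = 3.79e-09). *Lrrc15*, a membrane protein of activated fibroblasts, had 0 and 1 against 373 and 223, a ratio of 3108 (556 to 122980). The granzymes *Gzmd* and *Gzme*, serine proteases of cytotoxic cells, had no count and 0 and 1 counts in TAM long, and 195 and 198 of *Gzmd* (at least 683-fold higher) and 393 and 432 of *Gzme* in DMBA+TAM, a ratio of 4303 (770 to 170154), while of the granzymes in the list of T cells *Gzmb* was called lower and *Gzma*, with 89 and 17 counts against 6 and 4, was not called (it was called lower without TAM long replicate 2, with a log2 fold change of -1.68 and edgeR adjusted p = 0.00171). *Hp*, haptoglobin, which binds free hemoglobin, had 21 and 27 counts against 4055 and 2009. In any library outside DMBA+TAM, *Gzmd* had no count, *Gzme* at most 1, *Col10a1* at most 2 and *Lrrc15* at most 5. These genes passed the filter only through DMBA+TAM, so their direction was largely fixed beforehand and their calls are no separate evidence. The rule also named *Prrx1*, given above, *Tbx15*, a T-box factor of trunk and limb with 0 and 2 counts against 129 and 188, *Wfdc21* with no count against 69 and 71, and *Gm6900*, *Tpm3-rs7* and *Gm13305*, copies of other genes whose counts are uncertain. All 12 of the largest fitted falls had no count in DMBA+TAM. They were *Sult1d1*, a sulfotransferase (5890 and 4411 counts in TAM long, at least 658-fold lower), *Gcnt3*, which branches mucin sugars (at least 624-fold), *Dsg2* and *Dsc2*, cadherins of desmosomes (at least 608- and 431-fold), *Ces2a*, a carboxylesterase (at least 607-fold), *Gucy2c*, the receptor of guanylin (at least 341-fold), and *2610528A11Rik*, *Fam83e*, *Sectm1b* and *Ildr1* (at least 484-, 420-, 384- and 347-fold), with *Ehf* and *Mep1b* given above.

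Per length of the gene, the most abundant transcripts of the groups also differed. In FPKM, which scales fragments by the length of the exons and the depth of the library, the 10 highest genes of TAM long were *mt-Co1*, *Retnlb*, *Muc2*, *Car1*, *Lypd8*, *mt-Nd1*, *mt-Cytb*, *Zg16*, *Clca1* and *Lgals4*, that is mitochondrial transcripts and genes of colon epithelium. Those of DMBA+TAM were *Col3a1*, *Col1a1*, *Apoe*, *Sparc*, *mt-Co1*, *Tmsb4x*, *Eef1a1*, *Col1a2*, *Actb* and *Lyz2*, with collagens, a matrix protein, a lipid carrier and a macrophage lysozyme among them. *Muc2* stood at 7926 and 10180 FPKM in TAM long and 12.2 and 8.13 in DMBA+TAM, and *Col3a1* at 305 and 408 against 8927 and 8809. Only *mt-Co1* was among the 10 highest of both groups, at 14840 and 12667 FPKM against 4415 and 4583.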

How the data were processed

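Total RNA of the 10 libraries was poly-A selected and sequenced, and the authors aligned the reads with TopHat and counted them per gene with HTSeq. The deposited table holds raw counts and, beside them, FPKM values made by the authors, together with group means, fold changes and p-values of theirs that were not used here. All 10 libraries (5 groups of 2) entered 1 negative binomial model in edgeR 4.0.16 (R 4.3.3), with TMM scaling, its default filter on low counts, and the contrast DMBA+TAM minus TAM long. FPKM values served only to rank genes by level. An exact permutation test of 2 against 2 libraries cannot go below p = 0.333, so none is given.

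The members and the 43 lists were chosen with earlier results of these data known, and 8 further lists after their values had been seen. Names were given by a rule to 246 genes: key members of each list, up to 3 members against the majority of a list, the 12 largest rises and falls among called genes with at least 50 counts in each library of the higher group, and the 10 highest in FPKM per group. Further members were named after their values were seen, and some named by the rule are not reported here. On simulated data for this comparison, with 16179 genes, edgeR recovered 43 of 100 genes changed 2-fold and 88 of 100 changed 4-fold, with 7 false calls among 138. No other genes were changed there, and as many rose as fell, whereas 55.2% of genes were called in the data. These rates may therefore not hold for the data. The alternatives tried were no filter, DESeq2 1.42.0, scaling by library totals alone, the 4 libraries alone, a replicate block, thinned counts and leaving out each library. Promoters were matched by symbol to RefSeq on GRCm38.p6, and tables and plots were made in Python 3.11.15. Intervals and floors cover counting error only.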

Additional observations from a re-analysis of the deposited data

How the results depend on the processing

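The number of genes called was 8924 and stayed between 6982 and 9205 under every alternative, and 76% to 96.6% of the calls stayed past the threshold with the same sign. It was 8114 with DESeq2, 8594 when libraries were scaled by their totals, 9205 with no filter on low counts, 8266 in a fit of the 4 libraries alone, 6982 after thinning all libraries to the lowest total and 7337 to 7646 when 1 library was left out. Scaling by library totals moved the median log2 fold change of all genes from -0.14 to 0.03 and the share of calls that were higher from 45.9% to 54.3%. *Ppp2r1a* lost its call under every alternative, at -0.25 with DESeq2, -0.14 with library totals, -0.36 with no filter, -0.29 with the 4 libraries alone, -0.28 with thinned counts and -0.37 to -0.28 when 1 library was left out. The cause was not tested. Without DMBA+TAM replicate 2, *Acta1*, *Ckm* and *Mylpf* reversed to -2.11, -4.29 and -1.15, and without another library they ran up to 9.80, 5.39 and 8.41. Replicate numbers did not pair the samples (r = 0.023 across 16179 genes between the deviations of TAM long and DMBA+TAM, and from -0.0414 to 0.26 for the other pairs of groups, the highest for DMBA and TAM long). With the replicate block 8751 genes were called, and *Ppp2r1a* stood at -0.31 (edgeR adjusted p = 0.0565). Of the other genes described, the block lost the calls of *Bmi1* (0.0571) and *Id3* (0.0594) and called *Hoxb13* lower (-9.05, edgeR adjusted p = 0.0108). With no filter *Cd79a*, *Gzma*, *Nos2* and *Sis* were also called lower, and the calls of *Cldn1*, *Dclk1* and *Id3* were lost. With DESeq2 those of *Cldn1*, *Gfap*, *Phlda1*, *Slc20a1*, *Smad7* and *Xist* were lost. With library totals those of *Egr1*, *Gfap*, *Mmp7*, *Phlda1* and *Smad7* were lost and *Eef1a1* was called higher, as it was with DESeq2. With thinned counts those of *Egr1*, *S100b* and *Smad7* were lost and *Sis* was called lower. With the 4 libraries alone those of *Dclk1* and *Des* were lost and *Cd79a* was called lower. Depth limits genes below 3 counts in the smaller DMBA+TAM libraries.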

Other observations

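The groups of genes that follow were put together after their values had been seen, so their counts and medians describe these libraries and test nothing.

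Complement, the cascade of blood and tissue proteins that tags microbes and debris, was higher as a group, with 15 of 16 tested genes called higher and a summed level of 502 and 576 normalized CPM in TAM long and 8647 and 7918 in DMBA+TAM. *C4b* had 39.6 and 52.2 normalized CPM against 1886 and 1482 (log2 fold change 5.20, SE 0.23). Of 27 tested chemokines, which attract leukocytes, 21 were called higher and 3 lower (median 2.77). *Cxcl14* had 22.6 and 15.1 normalized CPM against 737 and 882, and *Ccl8* 16.4 and 17.1 against 450 and 460. *Ccl28*, which epithelium makes, went the other way, with 114 and 136 against 2.11 and 0. Antigen presentation genes did not share a direction, with 3 of 12 tested called higher and 3 lower (median -0.28). *H2-K1*, a class I molecule, had 7481 and 4985 counts in TAM long and 53 and 47 in DMBA+TAM (log2 fold change -4.55, SE 0.24), while *H2-D1* had 1966 and 1610 normalized CPM against 1117 and 1160, and *B2m*, the chain they share, had 1033 and 896 against 1219 and 1233 and was not called (log2 fold change 0.35). *B2m* was called higher with DESeq2 (0.42), with library totals (0.53) and with thinned counts (0.43). The class I genes resemble each other, so reads may be divided between them in an uncertain way.

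Of 13 tested genes of activated fibroblasts, 13 were called higher (median 5.23). *Lox*, which cross-links collagen, had 9.22 and 14 normalized CPM against 1287 and 1137, and *Fap*, the fibroblast activation protein, 4.48 and 4.42 against 119 and 106. Of 12 tested matrix genes of cartilage, bone and tendon, 8 were called higher and 2 lower (median 4.42), with *Fmod* at 1.03 and 2.16 against 313 and 233, while the cartilage collagen *Col2a1* had no count in TAM long and 0 and 2 in DMBA+TAM.

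Patterning factors split by body region. Of 12 tested factors of limb and trunk, 10 were called higher and 1 lower (median 7.03, or 5.63 with bounds). *Tbx18* had 3 and 0 counts in TAM long and 61 and 78 in DMBA+TAM, and *En1* had no count against 14 and 15, at least 50.4-fold higher. Of 9 tested factors of gut mesenchyme, 9 were called lower (median -5.12, or -4.78 with bounds), among them *Nkx2-3* with 203 and 175 counts against 1 and 0, and *Hand1* with 75 and 76 counts against none in DMBA+TAM, at least 9.65-fold lower. The summed level of the limb and trunk list was 46.3 and 23.9 normalized CPM in TAM long and 210 and 204 in DMBA+TAM, with 24.9 to 195 in the other 6 libraries.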
